A study of Brassica napus and Orychophragmus violaceus with 4 samples.

Results

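The sugar transporters described here are the genes of the SWEET, STP and SUC families in petals of *Brassica napus* and *Orychophragmus violaceus*. A gene was a member if its symbol in the deposited table of reads was SWEET, STP or SUC followed by a number, with or without the prefix AT. The rule found 57 members among 37441 genes, comprising 32 *SWEET*, 19 *STP* and 6 *SUC* genes, and these matched 26 Arabidopsis genes. Another 9 genes matched Arabidopsis genes of the same families but carried another symbol or none, so they fell outside the rule. Petals of half-open flowers from greenhouse plants were sequenced as 1 polyA library per material. M4 is a disomic addition line that carries all *B. napus* chromosomes plus a single pair from *O. violaceus*, and its petals were red on a yellow background. H3 is its parent, *B. napus* cv. Huashuang 3, with yellow petals. OvP is wild-type *O. violaceus* with purple petals, and OvW is a natural mutant of that species with white petals. M4 was compared with H3, and OvP with OvW, to ask which petal transcripts accompany the difference in colour. M4 is a single line, and no source used here gives the age of the plants. The column of reads taken for M4 bears a code instead of the name. The code starts with the number of the line, the other 3 columns name the other 3 materials, and over the 12 members with 50 or more reads in both M4 and H3 the M4 over H3 ratio of the RPKM, whose columns are named, divided by the same ratio of the reads lay between 1.05 and 1.06. Every M4 value below rests on that assignment.

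SWEET proteins are facilitators that let sugars pass membranes down their gradient, in either direction. The clade of *SWEET9* to *SWEET15* moves mainly sucrose, and the other clades mainly glucose and fructose. STP proteins are proton-coupled importers of monosaccharides at the plasma membrane, and SUC proteins are proton-coupled importers of sucrose. Petals are sink organs that receive sucrose through the phloem, and sugar that leaves the phloem is taken up by petal cells directly or after cleavage by invertases. Roles given below are those known from Arabidopsis.

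The *B. napus* libraries held 15507389 (M4) and 16447021 (H3) reads on genes, and those of *O. violaceus* 1850787 (OvP) and 2040729 (OvW). All reads had been aligned to the genome of *B. rapa* and counted on its genes. The subgenomes of *B. napus* and the genes of *O. violaceus* were thus counted on the same models. Near-identical copies could not be separated. A count of 0 allows up to 3 reads, which is 0.193 (M4), 0.182 (H3), 1.62 (OvP) or 1.47 (OvW) CPM, counts scaled to the reads of the library. Low members were therefore measured less closely in *O. violaceus*. The paper reports similar numbers of clean reads for all materials. It also reports that a much smaller share of them mapped to *B. rapa* in *O. violaceus* than in *B. napus*. With 1 library per material the differences have no replicate check. Every p-value and 95% interval below compares these libraries, not the conditions, and covers counting error only. The petal identity genes *APETALA3* and *PISTILLATA* with 5 others of their list held 68005 (M4), 80630 (H3), 9469 (OvP) and 15548 (OvW) reads, so that petal markers were present in every library.

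The members summed to 318 CPM in M4 and 622 CPM in H3. In *O. violaceus* they summed to 1840 CPM in OvP and 2986 CPM in OvW. Reads were found for 40 (M4), 38 (H3), 41 (OvP) and 46 (OvW) members, and 10 or more reads for 22 (M4), 27 (H3), 12 (OvP) and 17 (OvW). The deposited RPKM, which divides reads by gene length and by library size, allows levels of different genes to be set side by side within a library. In M4 the highest members were *SWEET12* (Bra009700) at 112 RPKM, *SWEET4* (Bra033034) at 40.2, *SWEET1* (Bra017916) at 39.2, *STP1* (Bra019870) at 27.7 and *SWEET4* (Bra025317) at 25.7. In H3 they were *SWEET12* (Bra009700) at 128 RPKM, *SWEET4* (Bra033034) at 119, *SWEET4* (Bra025317) at 82.6, *SWEET13* (Bra040489) at 66.7 and *SWEET9* (Bra000116) at 43.9. A sucrose facilitator thus had the highest member level in both *B. napus* petals, and hexose facilitators came next.

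In *O. violaceus* the order was another one. *SWEET4* (Bra025317), a hexose facilitator of veins and flowers, had 1150 RPKM in OvP and 1606 RPKM in OvW, where it ranked 90 and 60 among all genes. It was followed in OvP by *SWEET4* (Bra033034) at 212 RPKM, *SWEET1* (Bra017916) at 192, *STP1* (Bra031762) at 165 and *SWEET15* (Bra008850) at 127. In OvW the next members were *SWEET4* (Bra033034) at 552 RPKM, *STP1* (Bra031762) at 432, *SWEET15* (Bra023394) at 297 and *SWEET1* (Bra017916) at 133. The copies of the other 10 Arabidopsis genes, namely *SWEET3*, *SWEET5*, *SWEET8*, *SWEET14*, *SWEET16*, *STP2*, *STP9*, *STP13*, *STP14* and *SUC6*, had at most 8 reads in any library, and *SWEET5*, *SWEET8*, *STP2* and *STP9* among them are known from pollen. Levels were not tested between species, since the species differ in how many of their reads were counted on *B. rapa* genes.

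**Figure D1:**
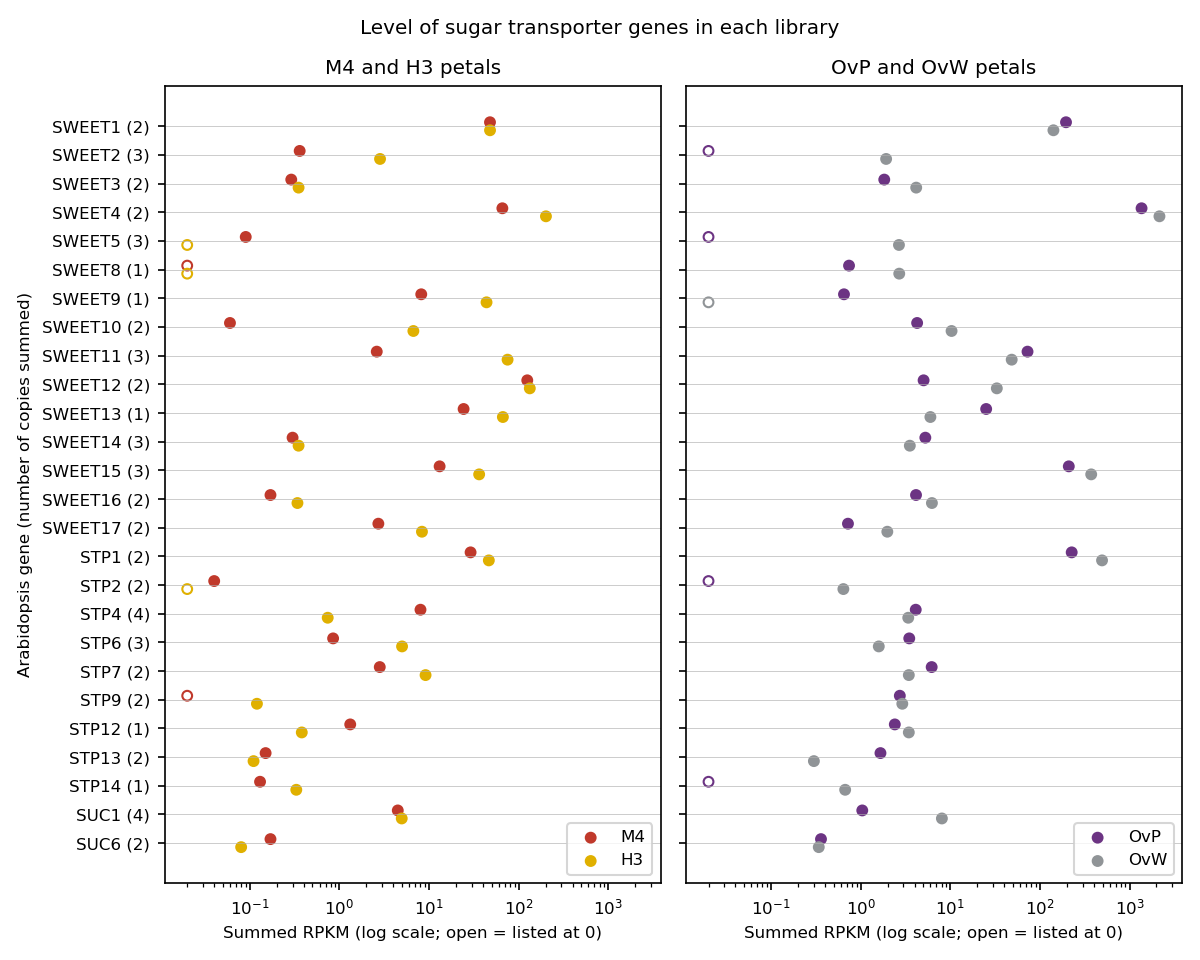
Summed RPKM (horizontal, log scale) of the copies of each Arabidopsis gene (vertical) in M4 and H3 petals at the left and OvP and OvW petals at the right, 1 point per library and open points for a level listed at 0. *SWEET12* has the highest sum in M4, at 125 RPKM, and *SWEET4* in the other libraries, at 202 RPKM in H3, 1363 RPKM in OvP and 2159 RPKM in OvW.

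In M4 petals 14 of the 25 *SWEET* genes tested were called lower than in H3 petals and none was called higher, whereas *STP* genes were called in both directions. A gene was called where edgeR's exact binomial test gave p of 0.01 or less and the fold reached 2 or, downwards, 0.5, after TMM scaling within the pair, which assumes that most genes do not differ. Of 57 members, 13 had no read in the pair and 44 were tested. Among these, 18 were called lower in M4 (40.9%) and 3 were called higher (6.82%), whereas 12.7% of all 34286 genes tested were called lower and 16.2% higher. The *STP* genes gave 4 lower and 3 higher calls of 14 tested, and none of the 5 *SUC* genes tested was called. The other 23 tested members were not called, and 10 of these had 3 reads or fewer in both libraries. The median log2 difference was -1.60 over the members tested and 0.05 over all genes tested, or -1.55 and -0.23 with 0 reads set to 3. Scaling by total reads shifts the median of all genes to 0.43, and then 18 members were called lower and 4 higher, against 7.98% and 22.9% of all genes.

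Summed over copies, 25 of the 26 Arabidopsis genes had reads in M4 or H3, and 11 were called lower in M4 and 2 higher. Of all 19224 sums tested, 13.7% were called lower and 16.6% higher. The *SWEET* family held 3772 reads in M4, against 8464 in H3, a fold of 0.362 (0.348 to 0.376). The *STP* members held 1053 reads in M4, against 1641 in H3, a fold of 0.521 (0.482 to 0.564). All 22 *STP* copies by Arabidopsis match, with those outside the rule, held 1389 reads in M4, against 1847 in H3. The *SUC* members held 113 reads in M4, against 130 in H3, a fold of 0.706 (0.544 to 0.916). All 12 *SUC* copies by Arabidopsis match, with the 6 outside the rule, held 2567 reads in M4, against 2371 in H3, before scaling. TMM scaling counts M4 as the larger library, at 17715640 reads against 14396903 in H3. After it the median log2 difference over the 11 copies tested was -0.30, and 1 copy was called lower. In bulk petals fewer cells of a type and less RNA per cell cannot be told apart.

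Among the sucrose facilitators, *SWEET11*, which exports sucrose from phloem parenchyma, had the steepest fall of the member genes with reads in both libraries. Bra018039 had 22 reads in M4, against 610 in H3, Bra019560 had 9 in M4, against 362 in H3, and Bra029914 had 5 in M4, against 132 in H3. All 3 copies were thus lower in M4, with folds of 0.0293 (0.0182 to 0.0448), 0.0202 (0.00916 to 0.0388) and 0.0308 (0.00983 to 0.0737). Their sum of 36 reads in M4, against 1104 in H3, gave a fold of 0.0265 (0.0185 to 0.0369). *SWEET12*, which acts with *SWEET11* in phloem loading, was not called as a sum, with 1738 reads in M4, against 1954 in H3, a fold of 0.723. Its main copy Bra009700 had 1569 reads in M4, against 1873 in H3, a fold of 0.681 (0.636 to 0.728), and Bra026487 had 169 reads in M4, against 81 in H3, a fold of 1.70 (1.29 to 2.24). Neither was called, except that Bra026487 was called higher when the total reads or the deposited RPKM set the scale.

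*SWEET10* (Bra022761), a sucrose facilitator induced at the transition to flowering, had 0 reads in M4, against 98 in H3, at least 40.2-fold lower, although its deposited RPKM in M4 was 0.06. *SWEET9* (Bra000116), which exports sucrose in nectaries, had 107 reads in M4, against 603 in H3, a fold of 0.144 (0.116 to 0.177). *SWEET13* (Bra040489), a sucrose facilitator that also carries gibberellin, had 347 reads in M4, against 1000 in H3, a fold of 0.282 (0.249 to 0.319). All these were higher in H3. *SWEET15*, which is induced in senescing leaves, had 2 of its 3 copies called lower: Bra006185 with 15 reads in M4, against 117 in H3, and Bra008850 with 122 reads in M4, against 302 in H3. The copy Bra023394 had 2 reads in M4, against 9 in H3, and was not called. The 3 copies summed to 139 reads in M4, against 428 in H3, a fold of 0.264. *SWEET14* (Bra010477) had 4 reads in each library. The nectary invertase gene *CWINV4*, the only nectary marker analysed here, had 0 reads in M4, against 3 in H3, so that marker was close to 0 in both libraries.

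Among the hexose facilitators, both copies of *SWEET4* were lower in M4. Bra025317 had 309 reads in M4, against 1044 in H3, a fold of 0.241 (0.211 to 0.273). Bra033034 had 478 reads in M4, against 1492 in H3, a fold of 0.260 (0.234 to 0.289). The copies of *SWEET1*, a glucose facilitator of the plasma membrane, parted: Bra016421 fell to 106 reads in M4, against 297 in H3, a fold of 0.290, while Bra017916 had 468 reads in M4, against 310 in H3, a fold of 1.23 (1.06 to 1.42), and was not called. Their sum had 574 reads in M4, against 607 in H3, and was not called.

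Of the facilitators of the vacuolar membrane, both copies of *SWEET17*, a fructose carrier, were lower in M4. Bra012752 had 6 reads in M4, against 40 in H3, and Bra038060 had 25 in M4, against 62 in H3. *SWEET2* (Bra027312) had 0 reads in M4, against 14 in H3, at least 5.74-fold lower, and its neighbour Bra027314, next to it in the numbering of the genes, had 2 in M4, against 7 in H3, and was not called. The calls of both *SWEET4* copies, *SWEET13*, *SWEET1* (Bra016421), *SWEET15* (Bra008850) and *SWEET17* (Bra038060) were lost when edgeR's exact test assumed a biological coefficient of variation of 0.4, with p between 0.0181 and 0.0802.

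The hexose importers moved both ways. *STP4*, which is induced by wounding and pathogens, was higher in M4. Its copy Bra022468 had 159 reads in M4, against 11 in H3, a fold of 11.7 (6.39 to 24.0), and Bra001766 had 17 reads in M4, against 0 in H3, at least 4.61-fold higher. Summed over 4 copies, *STP4* had 189 reads in M4, against 17 in H3, a fold of 9.03 (5.49 to 15.8). *STP12* (Bra013529) had 32 reads in M4, against 10 in H3, a fold of 2.60 (1.25 to 5.93). That call was lost with p adjusted over all genes by the Benjamini-Hochberg method in edgeR's binomial test (adjusted p = 0.0161) and at every coefficient of variation tried.

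*STP1*, a high-affinity importer of glucose and galactose, was lower in M4 at its minor copy Bra031762, which had 36 reads in M4, against 161 in H3, a fold of 0.182 (0.123 to 0.262). The main copy Bra019870 had 699 reads in M4, against 1074 in H3, a fold of 0.529 (0.480 to 0.582), and was not called. The *STP1* sum of 735 reads in M4, against 1235 in H3, was called at a fold of 0.484, but with total reads the fold was 0.631 and the call ended. *STP6* (Bra001176), known from pollen, had 21 reads in M4, against 129 in H3, a fold of 0.132 (0.0792 to 0.211). *STP7*, a carrier of arabinose and xylose, had 68 reads in M4, against 215 in H3, at Bra036297, a fold of 0.257, and 1 read in M4 and 21 in H3 at Bra000898, a fold of 0.0387 (0.000936 to 0.241). The call of Bra036297 was lost at a coefficient of variation of 0.4 (edgeR's exact test, p = 0.0274). *SUC1*, the sucrose importer of pollen and roots, had 110 reads in M4, against 128 in H3, over 4 copies, a fold of 0.698, and no copy was called.

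Beside these values, some markers of other tissues were also called. Over all genes tested, 12.7% were called lower in M4 and 16.2% higher. The pollen and anther markers, 10 Arabidopsis genes with 16 copies tested, had 1 copy called higher and 3 lower, with 418 reads in M4, against 643 in H3. The pollen markers *VGD1*, with 122 reads in M4 and 221 in H3 over its copies, and *PPME1*, with 2 in M4 and 38 in H3, had copies called lower. The copy called higher was that of the anther regulator *AMS* (Bra002004), with 52 reads in M4 and 21 in H3. *MS2* held the most reads of this list, with 208 in M4 and 331 in H3, a fold of 0.511, and its sum was not called. *AGP11* had 24 reads in M4 and 14 in H3 and was not called, *AGP6* had 0 reads in both libraries, and *BCP1* had 1 in M4 and 0 in H3. The phloem markers had 3 of 15 copies called lower and none higher, with 9128 reads in M4, against 7233 in H3, before scaling. Most of these reads were of *AHA3*, with 5820 in M4 and 4062 in H3, a fold of 1.16 after TMM scaling. The median log2 difference over the phloem copies tested was -0.23. The carpel markers had 1 of 8 copies called lower, with 101 reads in M4, against 250 in H3. The senescence markers had 1 of 9 copies called lower, with 36 reads in M4, against 77 in H3, and *SAG12*, which defines late senescence, had 0 reads in M4 and 1 in H3. The part of these tissues in the differences was not tested.

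**Figure D2:**
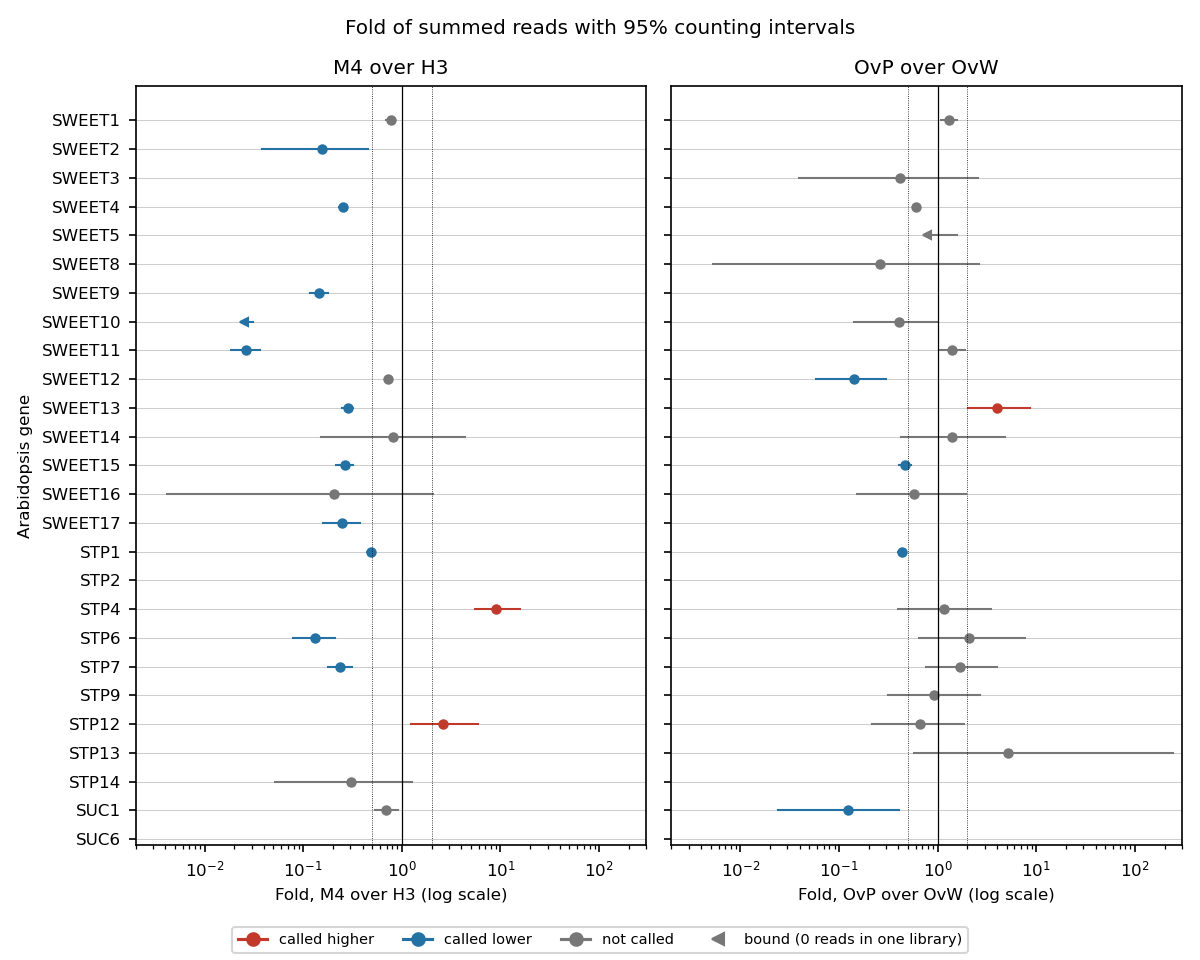
Fold of reads summed over copies (horizontal, log scale) for each Arabidopsis gene (vertical), M4 over H3 at the left and OvP over OvW at the right, with 95% counting intervals, dotted lines at the fold limits, and no point where both libraries held 3 reads or fewer. At the left most called genes lie below 1, with *SWEET11* at 0.0265 and *SWEET10*, with 0 reads set to 3, at 0.0249. *STP4* lies above 1 there, at 9.03. At the right 4 genes are called lower and only *SWEET13* higher.

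Between the petals of *O. violaceus* 6 members were called, 1 copy each of *SWEET4*, *SWEET12*, *SWEET13*, *SWEET15*, *STP1* and *SUC1*. Of 57 members, 4 had no read in the pair and 53 were tested, and 5 of these (9.43%) were called lower in OvP and 1 (1.89%) was called higher. Over all 33743 genes tested, 5.76% were called lower and 5.6% higher. Of the 47 members not called, 23 had 3 reads or fewer in both libraries, so that a difference in them was not detectable at these counts. The median log2 difference was -0.56 over the members and 0.06 over all genes tested, and 0.06 for both with 0 reads set to 3. Summed over copies, 26 Arabidopsis genes were tested, 4 of which were called lower and 1 higher, against 6.63% and 6.07% of all 19076 sums.

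The member called higher in OvP was *SWEET13* (Bra040489), with 42 reads in OvP and 11 in OvW, a fold of 3.97 (2.01 to 8.54). *SWEET12* (Bra009700) had 2 reads in OvP and 46 in OvW, a fold of 0.0452 (0.00531 to 0.173). The reads of *SWEET12* summed to 8 in OvP and 58 in OvW, a fold of 0.143. *SWEET15* (Bra023394) had 130 reads in OvP and 551 in OvW, a fold of 0.245 (0.201 to 0.297). Its other main copy, Bra008850, had 151 reads in OvP and 95 in OvW, a fold of 1.65 (1.27 to 2.16) that was not called, so Bra008850 had more reads in OvP and Bra023394 more in OvW. The sum over 3 copies was 292 reads in OvP and 654 in OvW, a fold of 0.464 that was called, and its call ended with the fold of 0.562 from the deposited RPKM. *SWEET4* (Bra033034) had 296 reads in OvP and 846 in OvW, a fold of 0.364 (0.317 to 0.416), while the more abundant copy Bra025317 had 1623 in OvP and 2491 in OvW, a fold of 0.677 (0.636 to 0.721), and was not called.

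Among the importers, *STP1* (Bra031762) had 487 reads in OvP and 1403 in OvW, a fold of 0.361 (0.325 to 0.40). The other copy, Bra019870, had 181 reads in OvP and 201 in OvW and was not called. *SUC1* (Bra017654) had 0 reads in OvP and 15 in OvW, at least 4.81-fold lower, and none in M4 or H3. *SUC1* summed over 4 copies had 3 reads in OvP and 25 in OvW, a fold of 0.125 (0.0241 to 0.409). *SWEET11*, so much lower in M4, had 118 reads in OvP and 87 in OvW, a fold of 1.41, and was not called. *SWEET1* had 273 reads in OvP and 217 in OvW and *STP7* 18 in OvP and 11 in OvW, and neither sum was called. The calls of *STP1* (Bra031762), *SWEET4* (Bra033034), *SWEET15* (Bra023394) and *SWEET13* were lost at a coefficient of variation of 0.4, where edgeR's exact test gave p between 0.0209 and 0.0886.

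By family, the *SWEET* genes held 2677 reads in OvP and 4415 in OvW, a fold of 0.630 (0.600 to 0.661). The *STP* members held 725 reads in OvP and 1653 in OvW, a fold of 0.456 (0.417 to 0.498), which was 0.989 without *STP1* (Bra031762). All 22 *STP* copies by Arabidopsis match held 850 reads in OvP and 1812 in OvW. The 6 *SUC* members held 4 reads in OvP and 26 in OvW. The direction was the other one over all 12 *SUC* copies by Arabidopsis match, which include 6 outside the rule, with 578 reads in OvP and 265 in OvW, and 3 copies called higher and 1 lower. In this pair no pollen, carpel or senescence marker was called, with 94 pollen and anther reads in OvP and 125 in OvW, 17 carpel reads in OvP and 24 in OvW, and 57 senescence reads in OvP and 64 in OvW. The phloem markers had 1471 reads in OvP and 1251 in OvW, and 1 of 16 copies was called higher, against 5.6% of all genes tested. The part of these tissues was not tested here either.

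The copy with the most reads was not the same in all libraries for several genes, among them *STP1*, *SWEET4*, *SWEET11*, *SWEET15* and *STP7*. For *SWEET1* it was Bra017916 in all 4. For *STP7*, Bra036297 held 98.6% of reads in M4 and 91.1% in H3. There Bra000898 held 94.4% of 18 reads in OvP and 100% of 11 in OvW. For *STP1*, Bra019870 held 95.1% (exact 95% interval 93.3 to 96.5) of reads in M4 and 87.0% in H3, whereas its share was 27.1% in OvP and 12.5% in OvW. For *SWEET15*, Bra008850 held 87.8% of reads in M4 and 70.6% in H3, against 1.44% and 2.10% for Bra023394. In OvP Bra008850 held 51.7% and Bra023394 44.5%, and in OvW Bra023394 held 84.3%. For *SWEET1*, Bra017916 held 81.5% in M4 (78.1 to 84.6) and 51.1% in H3 (47.0 to 55.1), and 98.2% in OvP and 94.0% in OvW. For *SWEET4* the share of Bra025317 was 39.3% in M4 and 41.2% in H3, and 84.6% in OvP and 74.6% in OvW. For *SWEET11* the share of Bra029914 was 13.9% in M4 and 11.96% in H3, and 58.5% in OvP and 65.5% in OvW. Between species, a difference in shares and a difference in which *B. rapa* copy the reads resemble cannot be told apart.

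**Figure D3:**
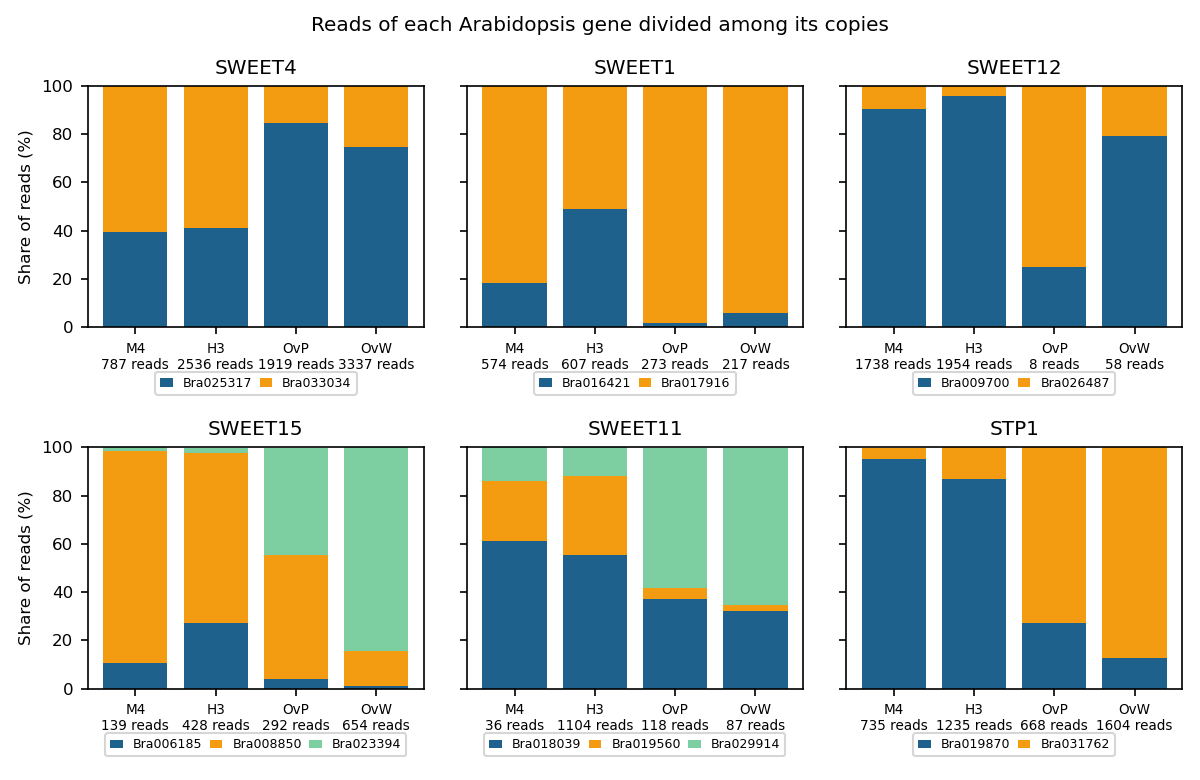
Share of the reads of an Arabidopsis gene (vertical, percent) held by each of its copies (colours) in M4, H3, OvP and OvW, with the reads of all copies written under each bar. Bra019870 holds 95.1% of *STP1* reads in M4 and 12.5% in OvW, and Bra023394 holds 1.44% of *SWEET15* reads in M4 and 84.3% in OvW.

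To ask whether the M4 over H3 fold of a gene differed from its OvP over OvW fold, the 4 summed counts were tested together with a conditional exact test, adjusted over all 12572 Arabidopsis sums with 10 or more reads in each pair. Of the 13 member genes that could be tested, 9 were called, against 26.7% of all sums. The largest difference was that of *SWEET11*, whose ratio of folds was 0.0188 (adjusted p = 1.4e-87). *SWEET4*, *SWEET13*, *STP7*, *STP6* and *SWEET10* likewise had the lower fold in M4 over H3. The call of *SWEET4* ended with total reads, where its ratio was 0.519. *SWEET12*, *STP4* and *SUC1* had the higher fold in that pair. For *SWEET1*, *SWEET15*, *STP12* and *STP1* the difference was not called. The ratio for *STP1* was 1.12, as its sums were 0.484 in M4 over H3 and 0.433 in OvP over OvW.

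Other genes of sugar transport and metabolism were read from lists made by Arabidopsis identifier. For comparison with the counts of copies called in these lists, 12.7% of all genes tested were called lower in M4 and 16.2% higher. In OvP, 5.76% of all genes tested were called lower and 5.6% higher. Of copies outside the rule, *SUC2*, the main phloem loader of sucrose, which the table calls *SUT1*, had 1825 reads in M4, against 1637 in H3, a fold of 0.906, and 488 in OvP and 189 in OvW, a fold of 2.68 (2.26 to 3.19) that was called. *SUC4*, a sucrose carrier of the vacuolar membrane, had 101 reads in M4, against 213 in H3, a fold of 0.385 that was called lower, and 18 in OvP and 7 in OvW. *TMT1*, which loads glucose into the vacuole, had 886 reads in M4, against 84 in H3, a fold of 8.57 (6.85 to 10.9), and 38 in OvP and 45 in OvW. Over the list of 20 tonoplast sugar transporter copies tested, 3 were called higher and 3 lower in M4, and 1 of 20 was called lower in OvP.

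Among the enzymes that cleave or make sucrose, 1 of 5 vacuolar invertase copies and none of 6 cell wall invertase copies was called higher in M4. In the same pair 1 cell wall invertase copy was called lower. All vacuolar invertase copies together held 20413 reads in M4, against 29384 in H3. Most were of *VI2*, with 20032 in M4 and 29320 in H3, a fold of 0.555 that was not called. *VI1* had 381 in M4 and 64 in H3, and its sum was called higher. In OvP, 2 of 9 cell wall invertase copies were called higher and 1 lower. *CWINV5* summed to 277 reads in OvP and 29 in OvW, a fold of 9.93. Sucrose phosphate synthases and phosphatases had 1 of 13 copies called higher and 4 lower in M4, and 2 of each in OvP. In that list *SPS1F* summed to 8636 reads in M4, against 19926 in H3, a fold of 0.352. Of the 7 sucrose synthase copies tested, 1 was called lower in M4 and 1 higher in OvP. Polyol and inositol transporters had 2 of 15 copies called higher and 6 lower in M4. Their reads summed to 2500 in M4, against 1599 in H3, and the median log2 difference was 0.20.

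**Figure D4:**
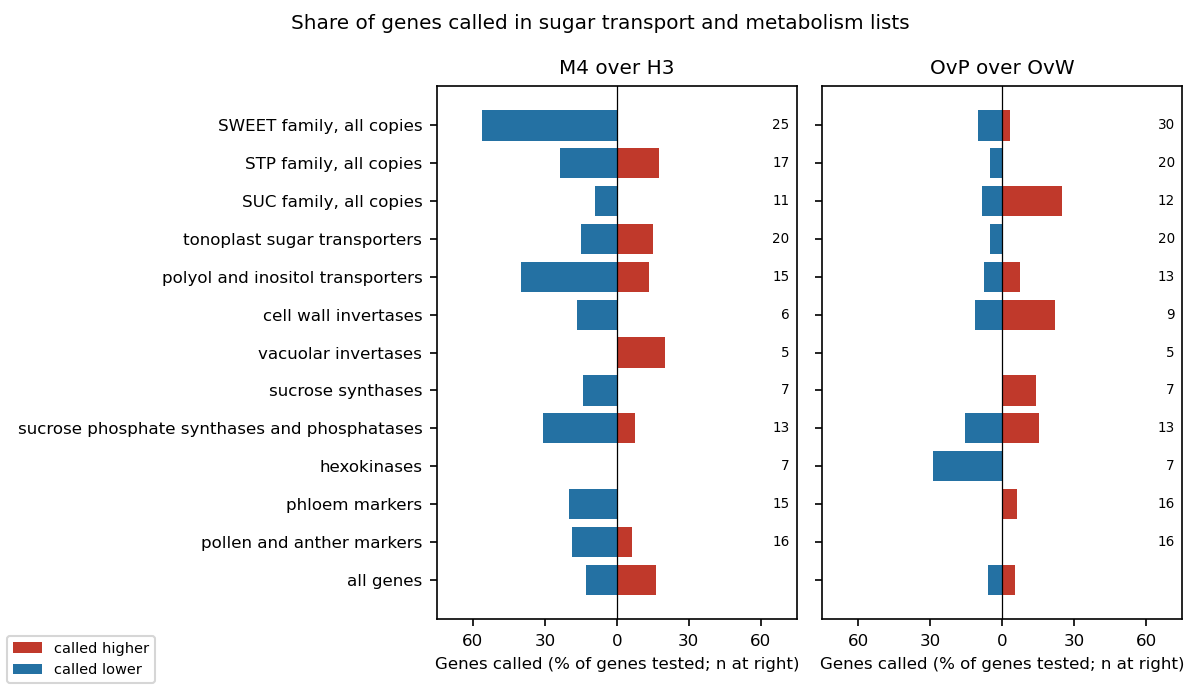
Percent of the genes tested in each list that were called higher (right, red) or lower (left, blue), M4 over H3 in the left panel and OvP over OvW in the right, with the number tested at the right of each bar and all genes as the lowest bar. The *SWEET* family has 14 of 25 genes called lower in M4 and none higher.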

How the data were processed

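Reads per gene (counts, as the authors deposited them) and RPKM come from polyA libraries that the authors aligned to *B. rapa* with TopHat, allowing up to 2 mismatches. The sources used here do not give the version, genome build or annotation. The deposited RPKM divides by a length shorter than the deposited gene length, which was used only as a description. Counts were scaled by TMM within each pair in edgeR 4.0.16 (R 4.3.3) and tested with binomTest over genes with 1 or more reads in the pair. Genes were called at a p up to 0.01 with at least a 2-fold difference (0.5 or less when lower). Intervals are 95% Clopper-Pearson. Fitted log2 medians used a prior count of 0.5. Alternatives were total reads, DESeq2 1.42.0 size factors, a minimum of 10 reads, Benjamini-Hochberg adjustment, RPKM folds, and edgeR's exact test at biological coefficients of variation set to 0.1, 0.2 or 0.4. The code was tested on simulated data. Named genes were every member called in either pair, the 5 highest by RPKM in each library, and their copies where compared. Members and lists were chosen with earlier results of these data known. Levels between species were not tested.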

Additional observations from a re-analysis of the deposited data

Results flagged for a closer look

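For 9 genes the fold of M4 over H3 differed from the fold of OvP over OvW, by a conditional exact test of the 4 summed counts with Benjamini-Hochberg adjustment and a ratio of folds of at least 2 or at most 0.5. The ratio was 0.0188 for *SWEET11*, 0.422 for *SWEET4*, 0.0711 for *SWEET13*, 0.140 for *STP7* and 0.0637 for *STP6*. For *SWEET10*, with 0 reads in M4 set to 3, it was 0.0616. It was 5.04 for *SWEET12*, 7.73 for *STP4* and 5.60 for *SUC1*, whose OvP sum rests on 3 reads. Reads in OvP and OvW were also few for *STP4* (9 and 8), *STP6* (10 and 5), *STP7* (18 and 11) and *SWEET10* (7 and 18). *SWEET12* had 8 reads in OvP. All rest on 1 library per material, so that spread between plants was not measured.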

How the results depend on the processing

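No call changed direction under any alternative run. With the biological coefficient of variation set to 0.4, 13 of 21 calls among members and 5 of 13 among sums were left in M4 over H3. In OvP over OvW 2 of 6 and 1 of 5 were left. At that setting 7.20% of all genes and 6.35% of all sums tested were called in M4 over H3. The shares in OvP over OvW were 1.88% and 1.77%. At 0.1 and 0.2 and with adjusted p, 20 member calls were left in M4 over H3 and 6 in OvP over OvW. Of all genes tested, 28.0%, 22.9% and 28.0% were called at these settings in M4 over H3. The shares in OvP over OvW were 10.1%, 6.73% and 8.57%. The SWEET family sum in M4 over H3 was 0.473 with total reads, 0.466 from RPKM and 0.272 without *SWEET12* (Bra009700). In OvP over OvW it was 0.669, 0.676 and, without *SWEET4* (Bra025317), 0.569. The STP sum in M4 over H3 was 0.681 with either scaling, and that in OvP over OvW was 0.989 without *STP1* (Bra031762). The SUC sum in M4 over H3 was 0.922 with total reads and 0.923 from RPKM. Of the 9 differences between pairs, 8 were called with total reads and 7 with 20 or more reads in each pair, where *STP4* and *STP6* had too few reads to be tested. The *SWEET15* sum in OvP over OvW lost its call with the RPKM fold of 0.562. No paired analysis was possible because each material had 1 library, and none could be left out. The low number of *O. violaceus* reads counted on *B. rapa* genes limits what can be said of members with few reads.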
